A study of Mus musculus with 22 samples.

Results

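The phagocyte NADPH oxidase genes described here are the 6 genes Cybb, Cyba, Ncf1, Ncf4, Rac2 and Hvcn1, taken by name from the 21995 genes of a mouse spinal cord RNA-seq table. All 6 had a row in the table. The libraries came from whole spinal cords of C57BL/6 mice, 1 library per column of the table, in 4 groups. Young wild-type males were 3 to 4 months old (8 libraries) and old wild-type males 18 to 24 months old (8 libraries), and Roche KAPA HyperPrep was the library kit for both. The other experiment held 3 SOD1-G93A libraries and 3 libraries of wild-type controls, both labelled 5 to 6 months and prepared with Illumina TruSeq. The SOD1-G93A line holds a mutant human SOD1 transgene at high copy number and its mice develop motor neuron disease, and the mice used were symptomatic. Each of these groups held 2 females and 1 male, but the labels do not say which library is which, so sex was no covariate. Kit and experiment coincide, so levels are compared within each experiment and not across them.

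The phagocyte oxidase moves electrons from NADPH across a membrane to oxygen and so makes superoxide, the first product of the respiratory burst with which neutrophils and macrophages attack microbes. Its membrane core, cytochrome b558, is a pair of proteins: gp91phox, encoded by Cybb, carries the electrons, and p22phox, encoded by Cyba, holds the pair together. In resting cells the other subunits wait in the cytosol: p47phox (Ncf1) is the organizer that docks on p22phox once phosphorylated, and p40phox (Ncf4) binds a phosphoinositide on the phagosome. Rac2, the Rac GTPase of blood cells, joins the complex when it holds GTP. Hvcn1 encodes a voltage-gated proton channel, not a subunit, that lets protons follow the electrons and so keeps the oxidase running. In the central nervous system the complex is best known in microglia, the resident macrophages, and loss of its subunits in people causes chronic granulomatous disease.

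On GRCm38, Cybb (ENSMUSG00000015340) lies at chrX:9435252-9487771 on the minus strand, Ncf4 (ENSMUSG00000071715) at chr15:78244801-78262580 on the plus strand and Rac2 (ENSMUSG00000033220) at chr15:78559167-78572783 on the minus strand, and no other annotated gene overlaps them. Cyba (ENSMUSG00000006519, chr8:122424776-122432930, minus) overlaps Gm20388, Ncf1 (ENSMUSG00000015950, chr5:134220053-134229625, minus) overlaps Gtf2ird2, and Hvcn1 (ENSMUSG00000064267, chr5:122206804-122242297, plus) overlaps Tctn1, each on the opposite strand. Whether the counting used strand is not given in the sources used here, so reads of these pairs may not be fully separated. The overlapping genes did not pass the test in either comparison: old against young, the log2 fold change was 0.07 for Gm20388, 0.00 for Gtf2ird2 and -0.07 for Tctn1, and SOD1-G93A against control it was 0.31, -0.04 and 0.02.

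Promoter sequences from RefSeq (GRCm38.p6) were found for only 3 of the 6 genes, Cybb, Cyba and Ncf1, and these 3 are shown. The lines give the 100 bases before the start on the gene's own strand, Cybb at chrX:9469325-9469424, Cyba at chr8:122432941-122433040 and Ncf1 at chr5:134229626-134229725, and 24 bases after the start of Cybb at chrX:9469301-9469324, all on the minus strand. The RefSeq start of Cybb lies inside the gene span given above.
Cybb before the start: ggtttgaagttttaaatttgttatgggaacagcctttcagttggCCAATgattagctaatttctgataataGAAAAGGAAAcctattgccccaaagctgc
Cybb after the start: tgtTTTCATTTCCTCatcagaaga
Cyba before the start: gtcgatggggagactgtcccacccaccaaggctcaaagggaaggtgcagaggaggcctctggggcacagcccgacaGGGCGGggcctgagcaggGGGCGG
Ncf1 before the start: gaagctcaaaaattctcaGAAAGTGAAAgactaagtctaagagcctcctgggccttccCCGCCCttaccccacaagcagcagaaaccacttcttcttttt

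Capitals mark matches, on either strand, to 5 motifs searched in windows of 250 bases before to 50 after the start: the PU.1 core GAGGAA, the ETS-IRF composite GGAANNGAAA, the interferon response element-like GAAANNGAAA, the GC box GGGCGG and CCAAT. Cybb held CCAAT at -56 and GAAANNGAAA at -29. Read on the other strand, it held GAAANNGAAA at -168 and -124, outside the bases shown, and GGAANNGAAA from 4 to 13 and GAGGAA from 10 to 15, which overlap each other. Cyba held GGGCGG at -24 and -6, and Ncf1 held GAAANNGAAA at -82 and GGGCGG on the other strand at -42. No motif of the 5 was shared by all 3 windows. Of 32851 promoter windows in the same table, 28.3% held the PU.1 core, 2.72% the ETS-IRF composite, 3.44% the interferon response element-like motif, 35.7% the GC box and 37.4% CCAAT. A match is a description of letters and not a measured binding site.

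The young libraries held from 5078092 to 9358055 counts (median 7957405.5), the old from 5664869 to 9145600 (median 7305629.5), the controls from 10693060 to 13219797 (median 12080159) and the SOD1-G93A from 9675610 to 11872431 (median 10926373). A count of 3, taken as the floor, was worth, by the plain library total, 0.321 to 0.591 CPM (counts scaled to a common total) in young, 0.328 to 0.53 in old, 0.227 to 0.281 in control and 0.253 to 0.31 in SOD1-G93A libraries. These floors cover counting error only. The CPM levels given below are also scaled by TMM factors, which adjust for the make-up of each library, so they are on a slightly different scale from the floors. The depth limits Cybb and Ncf4 in the reference groups: 26 Cybb counts were found over all 8 young libraries, with 4 of the 8 at 3 counts or fewer, and 42 Ncf4 counts, with 1 of 8 at that level.

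In both case groups 1 library stood below the others. The old library with the fewest detected genes (15716 genes with a count) was the lowest of the 8 for all 6 genes, had the lowest summed microglial markers of its group (510.5 CPM) and gave 4.05% of its counts to mt-Co1, against 2.02% to 3.22% in the other old libraries. This old library also had the highest summed neuronal markers of the 8 (3629 CPM, the next 3063). Its summed spinal Hox genes were the highest as well (531 CPM, the next 426). Of the 3 SOD1-G93A libraries, the one with 9675610 counts was the lowest for all 6 genes and for summed microglial markers (1151 CPM against 1486 and 1774). That library had the highest summed neuronal markers (2543 CPM against 1447 and 1678) and the lowest summed astrocyte markers (10219 CPM against 16394 and 14645). Values without each of these libraries are given beside the results.

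Markers of the tissue were abundant. Snap25, a synaptic protein of neurons, averaged 2487 CPM in young libraries, and Hoxb8 of the spinal Hox genes averaged 264 CPM. All 11 microglial markers were detected, the lowest being Aif1 at 3.18 CPM in young libraries.

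The first comparison asked what differs between old and young spinal cord. All 5 oxidase genes that could be tested rose in old mice, and Cybb, near the floor in young libraries, rose 33.1-fold. Hvcn1 and Cyba rose 4.7-fold and 4.49-fold, and Rac2 and Ncf1 rose 2.48-fold and 2.25-fold. Genes were called at a log2 fold change over 1 and an adjusted p under 0.05 in edgeR. Of the 13647 genes tested, 2.18% were called higher. Ncf4 did not pass the filter on low counts, so 5 of 6 genes were tested and the 5 are not all members. Cybb, with at most 6 counts in a young library, passed this filter only through the old libraries.

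Cybb ranged from 0.131 to 0.97 CPM in young libraries, with a median of 0.413, and from 7.4 to 21.1 CPM in old libraries, with a median of 14.7. The lowest old library lay above the highest young library. In the test Cybb had a log2 fold change of 5.05 (SE 0.29, n = 8 and 8, adjusted p = 1.48e-11 in edgeR), the 9th largest of the 13647 genes tested. Its size rests on few counts in young mice, and on the log2(FPKM + 1) scale, which shrinks low genes, it was 1.69.

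Cyba, the partner of Cybb in the membrane, ranged from 2.22 to 4.45 CPM in young libraries (median 3.59) and from 5.4 to 20.4 CPM in old libraries (median 17.3). No old library overlapped the young ones, and the low old library stood closest to them. The log2 fold change of Cyba was 2.17 (SE 0.21, adjusted p = 6.96e-08 in edgeR).

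Among the cytosolic subunits, Ncf1 ranged from 4.66 to 8.14 CPM in young libraries (median 6.91) and from 12.8 to 18.2 CPM in old libraries (median 14.9), with no overlap. Its log2 fold change was the smallest of those tested, 1.17 (SE 0.11, adjusted p = 2.32e-08 in edgeR). Ncf4 ranged from 0.424 to 0.988 CPM in young libraries (median 0.65) and from 0.771 to 2.98 CPM in old libraries (median 1.95), and 7 of 8 old libraries lay above every young one. With no filter on low counts Ncf4 had a log2 fold change of 1.51 (SE 0.30, adjusted p = 0.000674 in edgeR).

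Rac2 ranged from 1.16 to 3.73 CPM in young libraries (median 2.17) and from 3.7 to 9.97 CPM in old libraries (median 6.44). The groups touched at the low old library, and the other 7 old libraries lay above every young one. The log2 fold change of Rac2 was 1.31 (SE 0.21, adjusted p = 6.62e-05 in edgeR). Hvcn1, the proton channel, ranged from 1.98 to 4.05 CPM in young libraries (median 3.5) and from 8.95 to 19.8 CPM in old libraries (median 15.3), with no overlap. It had a log2 fold change of 2.23 (SE 0.16, adjusted p = 5.86e-10 in edgeR).

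Read together, every old library lay above every young library for 4 of the 5 genes tested, where 3.66% of all genes tested had this property. The 4 include Cybb, which was tested only because it was high in old libraries, so its place in this count is no separate support. The median log2 fold change of the 5 was 2.17, beside -0.0027 over all genes tested. Without the low old library, all 5 genes passed both thresholds, with Cyba at 2.29 and Cybb at 5.14. On the log2(FPKM + 1) scale, tested with limma, Ncf1 at 0.92 and Rac2 at 0.73 fell short of the fold threshold with adjusted p of 2.76e-06 and 0.000506.

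**Figure D1:**
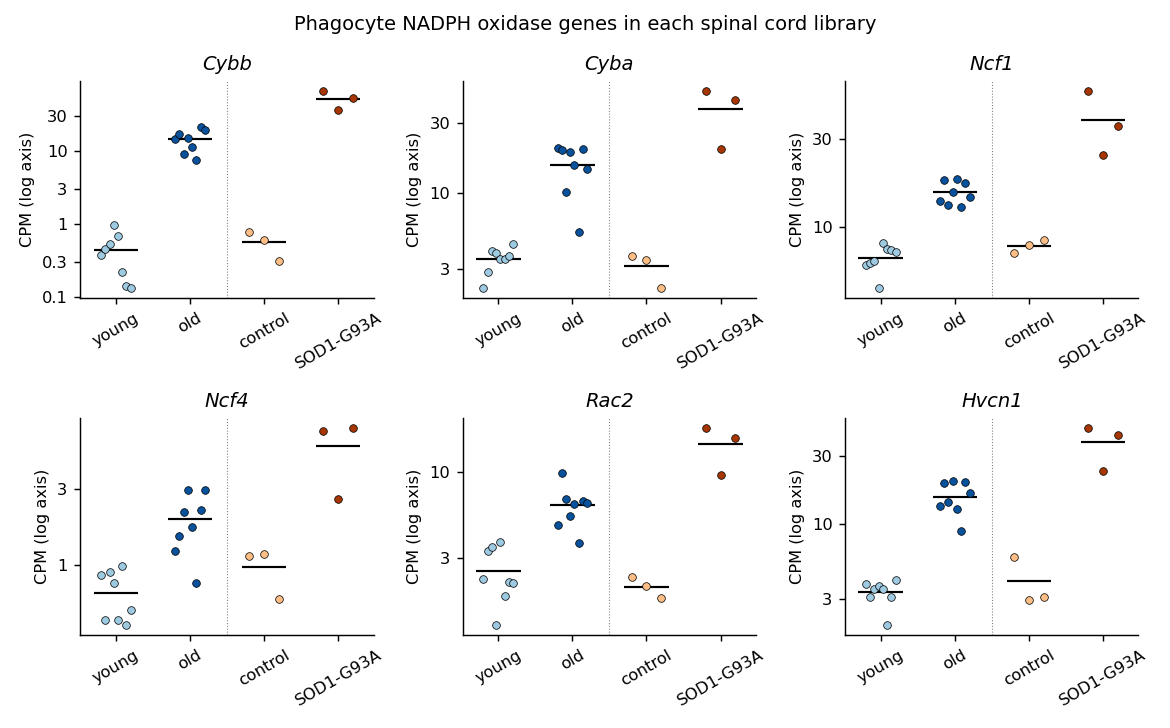
CPM of each of the 6 genes (log axis, a panel per gene) in the 8 young, 8 old, 3 control and 3 SOD1-G93A libraries, each point a library and each bar the group mean; the dotted line parts the experiments. Old libraries lie above young ones without overlap for Cybb, Cyba, Ncf1 and Hvcn1, and SOD1-G93A libraries lie above controls for all 6 genes.

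The comparison of SOD1-G93A with control mice asked what differs in the cord of symptomatic mice. All 6 genes rose, from 4.8-fold for Ncf1 to 94.1-fold for Cybb, and all 6 were called. Cyba rose 12.2-fold, Hvcn1 9.58-fold, Rac2 7.49-fold and Ncf4 5.84-fold. Of the 14386 genes tested, 8.5% were called higher.

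Cybb had 0.759, 0.589 and 0.307 CPM in the control libraries and 66.2, 35.9 and 52.6 CPM in the SOD1-G93A libraries. The lowest SOD1-G93A library had 356 Cybb counts, where the 3 controls together had 19. The log2 fold change of Cybb was 6.56 (SE 0.34, n = 3 and 3, adjusted p = 6.83e-05 in edgeR). Its size rests on few control counts, and on the log2(FPKM + 1) scale it was 3.21. Cyba had 3.7, 3.45 and 2.23 CPM in control libraries and 50.2, 20.04 and 43.6 CPM in SOD1-G93A libraries. The low SOD1-G93A library still lay far above the highest control. Cyba had a log2 fold change of 3.61 (SE 0.36, adjusted p = 0.000291 in edgeR).

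The organizer Ncf1 had 7.21, 8.0 and 8.53 CPM in control libraries and 54.6, 24.4 and 35.1 CPM in SOD1-G93A libraries. Its log2 fold change was 2.26 (SE 0.27, adjusted p = 0.000685 in edgeR), again the smallest of the 6. Ncf4, which passed the filter here, had 1.14, 1.18 and 0.615 CPM in control libraries and 7.03, 2.62 and 7.34 CPM in SOD1-G93A libraries. It had the largest SE of the 6, with a log2 fold change of 2.55 (SE 0.45, adjusted p = 0.00427 in edgeR).

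Rac2 had 2.28, 2.02 and 1.69 CPM in control libraries and 18.8, 9.67 and 16.2 CPM in SOD1-G93A libraries. The log2 fold change of Rac2 was 2.91 (SE 0.29, adjusted p = 0.000276 in edgeR). Hvcn1 had 5.88, 2.95 and 3.07 CPM in control libraries and 47.1, 23.5 and 41.8 CPM in SOD1-G93A libraries. 1 control library was high for Hvcn1 and still lay far under the SOD1-G93A libraries. The log2 fold change of Hvcn1 was 3.26 (SE 0.33, adjusted p = 0.000291 in edgeR).

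No SOD1-G93A library overlapped a control library for any of the 6 genes, where 25.7% of all genes tested did not overlap upward in this design of 3 against 3. Cybb, with at most 8 counts in a control library, passed the filter on low counts only through the SOD1-G93A libraries, so its place in this count is no separate support. The median log2 fold change of the 6 was 3.08, beside 0.0031 over all genes tested. Without the low SOD1-G93A library all 6 were called, and the log2 fold change was 2.501 for Ncf1, 2.89 for Ncf4, 3.14 for Rac2, 3.51 for Hvcn1, 3.92 for Cyba and 6.76 for Cybb.

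**Figure D2:**
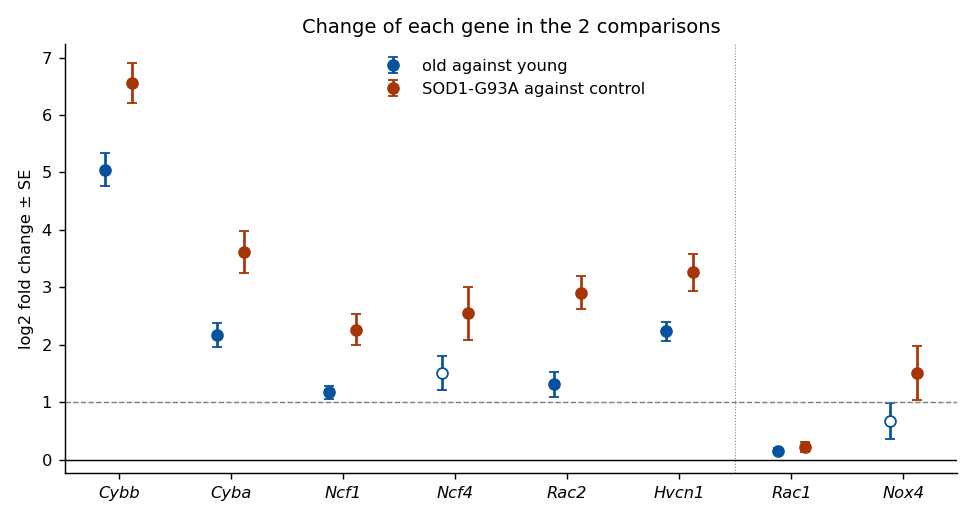
Log2 fold change with its SE for the 6 genes and, right of the dotted line, for Rac1 and Nox4, in old against young (blue) and SOD1-G93A against control (brown); open points failed the filter on low counts and come from the fit without it, and the dashed line marks the fold threshold. Cybb stands highest in both comparisons, at 5.05 and 6.56, and Rac1 stays near 0, at 0.16 and 0.22.

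The change in SOD1-G93A mice was larger than the change with age for Cyba, Ncf1, Rac2 and Hvcn1 when the difference itself was tested in 1 fit of the 22 libraries. This difference was 1.42 on the log2 scale for Cyba (SE 0.44, adjusted p = 0.0183 in edgeR), 1.06 for Ncf1 (SE 0.25, adjusted p = 0.00243), 1.56 for Rac2 (SE 0.39, adjusted p = 0.00382) and 0.998 for Hvcn1 (SE 0.35, adjusted p = 0.0361). Of 14502 genes tested, 11.6% had a larger change in SOD1-G93A mice at an adjusted p under 0.05. Cybb, at 1.46 (SE 0.71, adjusted p = 0.133), and Ncf4, at 0.99 (SE 0.54, adjusted p = 0.183), did not pass, which does not show that their changes were equal. Kit, sex and age differ between the experiments, and their part in this difference cannot be told apart from the groups.

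The calls for Cyba and Hvcn1 in this test hung on single libraries. Without the control library of 13219797 counts, Cyba was at 1.21 (adjusted p = 0.0743) and Hvcn1 at 0.84 (adjusted p = 0.121). Without the SOD1-G93A library of 11872431 counts, Cyba was at 1.17 (adjusted p = 0.0739) and Hvcn1 at 0.81 (adjusted p = 0.128). Hvcn1 also missed the threshold without 1 of 6 other libraries: the control of 12080159 counts (0.83, adjusted p = 0.124), the SOD1-G93A library of 10926373 (0.92, 0.0843), the young ones of 8148835 (0.96, 0.0532), 8741218 (0.96, 0.0536) and 7649102 (0.92, 0.0603), and the old one of 7321605 (0.94, 0.0524). Ncf4 passed without the low SOD1-G93A library (1.32, adjusted p = 0.0428), and the Cybb difference passed on the log2(FPKM + 1) scale in limma (1.52, adjusted p = 0.000636). Ncf1 and Rac2 passed whichever library was left out.

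Levels of different genes were compared per transcript length, in FPKM. In young libraries the medians ran from Cyba at 4.84 FPKM and Ncf1 at 2.54 through Hvcn1 at 1.19, Ncf4 at 0.77 and Rac2 at 0.685 to Cybb at 0.165. Cyba and Ncf1 stood apart from their neighbours in every young library, while the ranges of Hvcn1, Ncf4, Rac2 and Cybb overlapped with the next gene. In old libraries Cyba led at 23.9 FPKM, and its range did not overlap that of Ncf1 at 5.71, which did overlap that of Hvcn1 at 5.28. Cybb, last in young libraries, was at 3.05 FPKM, above Rac2 at 2.03 in 7 of 8 libraries. Ncf4 had a median of 1.84, and Rac2 was above it in 3 of 8 libraries, so these 2 have no clear order.

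In control libraries the order was that of the young libraries, from Cyba at 4.54 FPKM to Cybb at 0.15. In SOD1-G93A libraries Cyba was at 59.9 FPKM, Hvcn1 at 14.7, Ncf1 at 13.5, Cybb at 10.8, Ncf4 at 6.4 and Rac2 at 5.22. The ranges of Cyba and Cybb did not overlap that of the next gene, and the others did. The FPKM of Cyba divided by that of Cybb, the partners in the membrane, had a median of 29.1 in young and 7.66 in old libraries, and of 32.3 in control and 5.09 in SOD1-G93A libraries. The old ratios, 5.04 to 8.89, lay below all young ratios, 11.6 to 207, and the SOD1-G93A ratios, 3.74 to 5.57, below the control ones, 10.3 to 51.3; the high ratios divide by Cybb values near the floor.

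**Figure D3:**
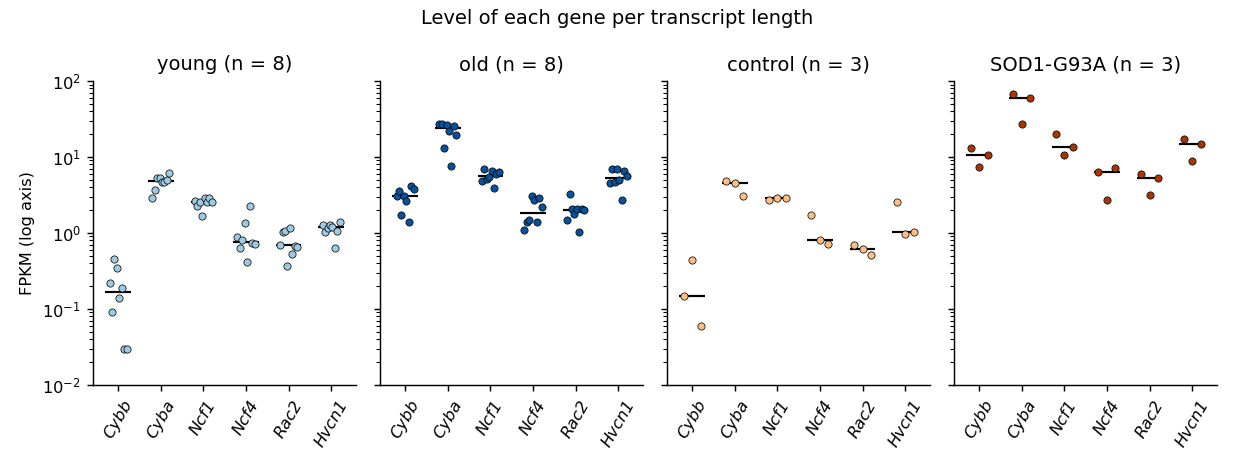
FPKM of the 6 genes (log axis) in each group, a panel per group, each point a library and each bar the group median. Cyba is highest in all 4 groups, and Cybb is lowest in young and control libraries but not in old and SOD1-G93A libraries.

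Other subunits and homologues differed from each other. Rac1, the Rac GTPase found in most cells, was abundant, at 356 ± 10.5 CPM in young and 397 ± 35.9 CPM in old libraries. It rose by 0.16 on the log2 scale with age (SE 0.05, adjusted p = 0.018 in edgeR), under the fold threshold, and did not pass the test in SOD1-G93A mice (0.22, SE 0.09, adjusted p = 0.0838). Per length, Rac1 stood 266 times above Rac2 in the median young library and 101 times above it in the median old library. In the other experiment this ratio was 247 in the median control library and 38.8 in the median SOD1-G93A library.

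Nox4, a homologue that makes hydrogen peroxide without the cytosolic subunits, was low, at 0.871 CPM in young and 1.43 CPM in old libraries, and failed the filter in that comparison. It had 2.85, 1.09 and 0.845 CPM in control and 5.0, 2.62 and 5.73 CPM in SOD1-G93A libraries, where it was called at 1.51 (SE 0.47, adjusted p = 0.0367 in edgeR) although the groups overlapped. Cybc1, the chaperone of cytochrome b558, was at 25.6 CPM in young and 28.4 CPM in old libraries and did not pass in either comparison. Over all genes, 13.5% rose and 12.9% fell with age at an adjusted p under 0.05, and 18.4% rose and 15.5% fell in SOD1-G93A mice. At most 10 counts were found in any library of a comparison for 7 other homologues and their partners, among them Nox1, Nox3 and the Duox genes.

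Genes that regulate the oxidase, through Rac switching in either direction, kinases and lipid signals, moved in part. Of these 22 genes, 12 rose with age, 7 of them past the fold threshold, and 3 fell, and 13 rose in SOD1-G93A mice, 11 past the fold threshold, and 3 fell. The median log2 fold change was 0.32 with age and 0.91 in SOD1-G93A mice. Dock2, a Rac exchange factor of blood cells, rose by 1.32 (SE 0.13, adjusted p = 1.05e-07 in edgeR) with age and by 2.81 (SE 0.23, adjusted p = 0.000147) in SOD1-G93A mice, and Vav1, another exchange factor, by 1.29 and 2.70. Arhgap25, which turns Rac off, rose by 1.45 and 3.13, and Arhgdib, which holds Rac in the cytosol, by 1.17 and 2.26. The genes that fell, 3 with age and 3 in SOD1-G93A mice, were not all the same genes, and all stayed under the fold threshold.

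Of 11 receptors upstream of the oxidase, 8 were tested with age and 9 in SOD1-G93A mice. All of those tested rose past both thresholds, with medians of 1.59 and 3.03. Fcgr4 was tested only in SOD1-G93A mice, with at most 6 counts in a control and 56 in a SOD1-G93A library. In the comparison with age it had at most 7 counts in any library. Itgb2, the beta chain of the complement receptor, rose by 2.23 (SE 0.16, adjusted p = 5.81e-10 in edgeR) and 3.35 (SE 0.22, adjusted p = 8.14e-05), and Fcer1g, the signalling chain of activating Fc receptors, by 1.76 and 3.45. Tlr2, a receptor for bacterial lipoproteins, rose by 1.95 and 3.03, and C5ar1, the receptor of complement C5a, by 2.01 with age. Fpr1 and Fpr2, receptors of formylated bacterial peptides, had at most 10 counts in any library, and Clec7a was not analysed here.

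Transcription factors of these genes rose as well. All 7 tested rose in both comparisons at an adjusted p under 0.05, 5 past the fold threshold with age and 6 in SOD1-G93A mice, with medians of 1.21 and 2.51. Irf8, a myeloid factor, rose by 1.86 (SE 0.17, adjusted p = 2.71e-08 in edgeR) and 3.38 (SE 0.26, adjusted p = 0.000124), Runx1 by 1.67 and 2.84, and Spi1, which encodes PU.1, by 1.29 and 2.71. Cebpe, a granulocyte factor, had no more than 1 count in any library.

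Enzymes that remove superoxide and peroxide moved less. Of 18 tested, 8 rose and 0 fell with age, none past the fold threshold, and 8 rose, 3 past it, and 1 fell in SOD1-G93A mice, with medians of 0.20 and 0.29. Prdx6, a peroxiredoxin, rose by 0.62 (SE 0.09, adjusted p = 1.43e-05 in edgeR) and 2.23 (SE 0.24, adjusted p = 0.000386), Gpx1 by 0.66 and 1.204 and Gpx3 by 0.84 and 1.21. Sod2, the mitochondrial superoxide dismutase, fell by 0.61 (SE 0.14, adjusted p = 0.0109) in SOD1-G93A mice. Mouse Sod1 rose by 0.19 with age (SE 0.04, adjusted p = 0.00194) and by 0.95 in SOD1-G93A mice (SE 0.09, adjusted p = 0.000241), where every library carries the human SOD1 transgene; how reads of the transgene were assigned is not given in the sources used here.

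Microglial markers moved with the oxidase genes. Of 11 markers, 8 rose with age, 4 past the fold threshold, and 7 rose in SOD1-G93A mice, all 7 past it, with medians of 0.72 and 1.79. Their summed level was 362 to 405.7 CPM in young and 510.5 to 741.2 CPM in old libraries, and 454.7, 398.5 and 383.7 CPM in control against 1774, 1151 and 1486 CPM in SOD1-G93A libraries. P2ry12, a purine receptor of resting microglia, had log2 fold changes of 0.05 and 0.13, Sall1 of -0.01 and 0.16 and Siglech of 0.16 and 0.43, and these 3 did not pass the test in either comparison. In whole cord, more microglia and more RNA of a gene per microglial cell cannot be told apart.

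Each gene was therefore also set against the mean log2 CPM of the 11 markers in the same library, a mean that was 0.75 higher in old than in young and 1.59 higher in SOD1-G93A than in control libraries. Cybb was 3.66 higher relative to the markers in old than in young mice (exact two-sided permutation test, p = 0.000155, the smallest that 8 against 8 can give; 8 of 8 old libraries above all young). Hvcn1 was 1.36 higher (exact p = 0.000155, 8 of 8), Cyba 1.24 (exact p = 0.000777, 7 of 8) and Ncf1 0.41 (exact p = 0.000932, 6 of 8). These 4 passed after Benjamini-Hochberg correction over the 12 tests run. Rac2 at 0.53 (exact p = 0.0283, 3 of 8) and Ncf4 at 0.44 (exact p = 0.0774, 4 of 8) did not, although Rac2 passed with Csf1r alone as the reference (0.60) and without any 1 of 3 young libraries (those of 8832389, 7765976 and 8741218 counts, 0.59, 0.62 and 0.60).

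In SOD1-G93A mice the differences relative to the markers were 4.57 for Cybb, 1.87 for Cyba, 1.60 for Hvcn1, 1.16 for Rac2 and 0.58 for Ncf1, each with 3 of 3 libraries above all controls and an exact p of 0.1, the smallest that 3 against 3 can give. Ncf4 was 0.66 higher with 2 of 3 above (exact p = 0.3). The size of these differences depends on the scale. With log2(FPKM + 1) in place of log2 CPM they were 1.01 for Cybb, 1.199 for Cyba, 0.86 for Hvcn1, 0.24 for Ncf1, 0.05 for Rac2 and -0.06 for Ncf4 with age. In SOD1-G93A mice they were then 1.71 for Cybb, 1.77 for Cyba, 1.04 for Hvcn1, 0.49 for Ncf1, 0.30 for Rac2 and 0.08 for Ncf4. The marker list holds genes such as P2ry12 and Sall1 that moved little, and the difference depends on which markers stand for microglia.

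**Figure D4:**
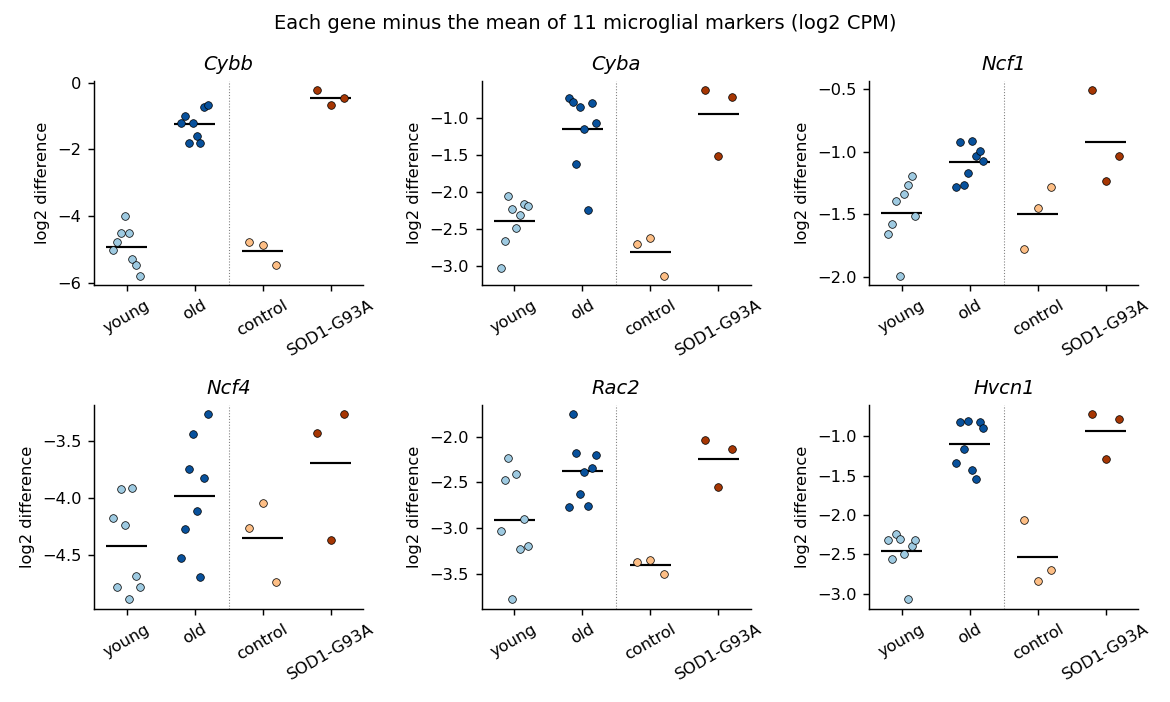
Log2 CPM of each gene minus the mean log2 CPM of 11 microglial markers in the same library, a panel per gene with its own axis, each point a library and each bar the group mean. Cybb and Hvcn1 separate old from young libraries without overlap, and Cyba, Ncf1, Ncf4 and Rac2 overlap.

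Markers of other phagocytes were near the floor. Of 11 neutrophil markers, 10 had at most 10 counts in any library of either comparison, Ly6g had 0 in every library, and S100a8 averaged 0.202 CPM in young, 0.316 in old, 0.151 in control and 0.323 in SOD1-G93A libraries. The exception, Csf3r, which was the most abundant of the list, rose by 1.57 with age and 2.75 in SOD1-G93A mice (edgeR, adjusted p = 2.62e-09 and 0.000124). The summed neutrophil list, almost all of it Csf3r, was 4.94 to 7.49 CPM in young and 10.95 to 21.0 CPM in old libraries, and 9.21, 8.84 and 6.68 CPM in control against 65.3, 36.3 and 51.3 CPM in SOD1-G93A libraries.

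Border macrophage markers summed to 3.52 ± 1.34 CPM in young and 3.48 ± 0.679 CPM in old libraries (SD, n = 8 and 8), with none of 7 tested. In control libraries they summed to 3.99, 3.03 and 1.77 CPM and in SOD1-G93A libraries to 8.22, 5.84 and 7.16 CPM, with 1 of 3 tested, Mrc1, called higher at 1.42 (adjusted p = 0.0478 in edgeR) although the groups overlapped. Monocyte markers summed to 32.0 and 27.4 CPM in young and old and to 42.5 and 67.4 CPM in control and SOD1-G93A libraries. Of these 5 markers only Vcan, which the cord also expresses, was tested, at -0.25 with age and 0.65 in SOD1-G93A mice, and Ccr2, which marks inflammatory monocytes, averaged 0.127 CPM in control and 0.909 CPM in SOD1-G93A libraries. B cell markers summed to 1.65 and 1.59 CPM in young and old and to 1.76 and 1.83 CPM in control and SOD1-G93A libraries, with Pax5 the most abundant, and T cell markers to 1.34 and 2.86 CPM and to 1.3 and 2.28 CPM, with Lck the most abundant. Dendritic cell markers summed to 43.8 and 38.1 CPM and to 42.6 and 27.5 CPM. Of these 5 markers, 2 were tested, and Flt3, the most abundant, fell by 0.24 with age and by 0.93 in SOD1-G93A mice. The part of these cells in the rise of the oxidase genes was not tested.

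Neurons and glia moved in SOD1-G93A mice. Of 7 neuronal markers, 4 fell, 2 of them past the fold threshold, with summed levels of 3321 ± 66.7 CPM in control and 1890 ± 578 CPM in SOD1-G93A libraries (SD, n = 3 and 3). Slc5a7, which takes up choline, fell by 1.08 (SE 0.11, adjusted p = 0.000344 in edgeR) and Mnx1, a motor neuron factor, fell by 1.21. Of 4 astrocyte markers, 3 rose past the fold threshold, led by Gfap at 2.40, and none of 4 oligodendrocyte markers passed. With age none of 7 neuronal markers passed, 2 of 4 astrocyte markers rose and none passed the fold threshold, and of 4 oligodendrocyte markers Mbp rose by 0.16 and Mog fell by 0.31. Of 5 spinal Hox genes, 1 fell in each comparison, Hoxc6 with age and Hoxb8 in SOD1-G93A mice. How far these shifts bear on the oxidase genes was not tested.

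The 5 genes whose pattern was most like that of Cybb were Lyz2, Itgax, Ccn5, Mmp12 and Ccl3. Likeness was the root mean square difference of log2 CPM over the 22 libraries, each gene centred within its experiment, among 13605 genes tested in both comparisons with the oxidase genes left out. It was 0.48 for Lyz2, 0.52 for Itgax, 0.56 for Ccn5, 0.62 for Mmp12 and 0.64 for Ccl3. Lyz2, which encodes lysozyme, had log2 fold changes of 4.84 with age and 6.24 in SOD1-G93A mice, and Itgax, which encodes the integrin CD11c, of 5.64 and 6.92. The other oxidase genes lay farther from Cybb, from 1.31 for Hvcn1 to 1.81 for Ncf1. The measure was not scaled, so the size of a gene's change counts in it. These other oxidase genes had smaller log2 fold changes than Cybb in both comparisons. Among themselves the nearest pairs were Ncf1 with Rac2 at 0.36 and Cyba with Hvcn1 at 0.37.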

How the data were processed

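Spinal cord RNA-seq libraries (22) were grouped by the labels carried in the column names. The authors aligned reads to mm10 with STAR, used SAMtools 1.3 and estimated counts with RSEM. The authors deposited expected counts, rounded to whole numbers and not normalized, and a second table of log2 values, the log2 of FPKM plus 1. Here counts were tested with edgeR 4.0.16 (filterByExpr at its settings of 10 counts and 15 in total, TMM, quasi-likelihood test, Benjamini-Hochberg adjustment over all genes tested) in R 4.3.3, within each experiment and, for the difference, in 1 fit of all 22 libraries. Alternatives used DESeq2 1.42.0, limma 3.58.1, RLE factors, other filters and each library left out. The procedure was tested on simulated data. Of 21995 genes, 21842 had a symbol in GENCODE M21. No 2 libraries of a group were duplicates: chi-square per degree of freedom was at least 2.52, where sampling noise gives 1. P-values measure the spread between libraries. Members and lists were chosen with earlier results of these data known. Log2 CPM used a prior count of 2. Named are all members, Rac1, Nox4 and Sod1, at most 6 genes per list and comparison by smallest adjusted p plus any that fell past both thresholds, and the 5 genes most like Cybb; other genes named, among them those overlapping members and markers near the floor, were chosen after their values were seen. Exact test p-values are given unadjusted. Python 3.11.15, pandas 2.3.3 and matplotlib 3.10.9 were used.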

Additional observations from a re-analysis of the deposited data

Results flagged for a closer look

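The change in SOD1-G93A mice exceeded the change with age for 4 genes, with a tested difference on the log2 scale of 1.42 for Cyba, 1.06 for Ncf1, 1.56 for Rac2 and 0.998 for Hvcn1. Among the 12 sets of 8 libraries examined (6 genes in young and in old mice), 1 young library stood apart from the others of its group, with Hvcn1 at 1.98 CPM. Chance gives about 1 in 20 such sets.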

How the results depend on the processing

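With age, 5 genes passed under DESeq2, RLE factors and no fold threshold, and whichever library was left out. With no filter and in 1 fit of all libraries Ncf4 was tested and 6 passed. A minimum of 10 counts in every library left 3 genes tested, of which 3 passed, and limma on log2 FPKM called 3 of 5. In SOD1-G93A mice all 6 passed under every alternative except the minimum of 10 counts in every library, which left 4 tested and 4 called. The difference between the comparisons was called for 3 of 3 genes tested under that minimum and for 5 in limma, and for between 2 and 5 genes when single libraries were left out; it was called for 2 genes without the control library of 13219797 counts and 2 without the SOD1-G93A library of 11872431 counts, and the cause was not tested. Relative to the microglial markers, 4 genes passed with age under a prior count of 0.5 and log2 FPKM and 5 with Csf1r alone, and between 4 and 5 when single libraries were left out. With 3 against 3 libraries that test could not pass, so it says nothing of stability. No called value reversed direction, and Ncf4, which did not pass there, was at -0.06 with log2 FPKM. Low counts limit Cybb and Ncf4 in young and control libraries. No paired analysis was possible because the columns carry no replicate numbers.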
